A study of Mus musculus with 6 samples.

Results

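The expression of 10 genes for Nipsnap proteins and mitophagy receptors was examined in primary MEFs, the fibroblasts grown from mouse embryos. The genes were Nipsnap1, Nipsnap2, Nipsnap3b, Pink1, Fundc1, Fundc2, Bnip3, Bnip3l, Phb2 and Fkbp8, and they were found by symbol as 10 of the 26898 rows of the expression table. They were chosen by the TPM values of Nipsnap1, which was known to be far lower in the KO cells of these same samples, so the values of Nipsnap1 are given as a description without a test. The samples were MEFs of C57BL/6 background at passage 3, with 3 WT samples (Kansl1fl/fl, numbered 4, 5 and 8) and 3 KO samples (Kansl1fl/fl/CAG-cre, numbered 3, 7 and 10). All 6 received 1 μM tamoxifen for 48 h, which activates the Cre recombinase in the KO cells and thereby removes the floxed part of Kansl1, a subunit of the NSL histone acetyltransferase complex. The CAG promoter is active in most cell types. Cells with Cre but without floxed Kansl1 were not analysed here, so the loss of Kansl1 and the presence of active Cre cannot be told apart. According to the methods of the study each group came from 3 mice, and the labels do not say whether littermates were used.

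Mitophagy is the removal of damaged mitochondria by autophagy, in which a membrane encloses the organelle and delivers it to the lysosome. Along the ubiquitin route the kinase PINK1 accumulates on damaged mitochondria and phosphorylates ubiquitin, and the organelle is covered in ubiquitin chains that adaptor proteins recognise. Along the receptor route, proteins that sit in the mitochondrial membranes, among them FUNDC1, BNIP3, BNIP3L, FKBP8 and prohibitin 2, bind the LC3 proteins of the forming autophagosome directly. NIPSNAP1 and NIPSNAP2 are matrix proteins that gather on the surface of depolarised mitochondria and bind autophagy adaptors there, so they mark the organelle for uptake.

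All values are TPM (a unit in which read numbers are corrected for gene length and brought to a common sum per sample). Reads recovered from the TPM values amounted to between 22812595 and 24263082 per WT sample and between 17655495 (KO 3) and 27718259 (KO 7) per KO sample. Kansl1, which is the targeted gene, was at 28.5, 26.7 and 24.4 TPM in WT 4, 5 and 8 and at 13.7, 15.8 and 14.4 TPM in KO 3, 7 and 10. KO cells therefore retained 55.1% of the WT level over all exons of the gene. Fibroblast markers were abundant in every sample, with a summed level over 10 genes of 10276 to 14856 TPM in WT and 11006 to 14443 TPM in KO. None of the 10 was called in either direction at the thresholds given below. Summed macrophage markers (7 genes) were at 33.5 to 37.8 TPM in WT and 69.6 to 140 TPM in KO, and all KO samples lay above all WT samples in 4 of the 7, as in 13.3% of tested genes. Lyz2 was called higher (22.5 TPM in WT and 73.6 TPM in KO, limma adjusted p-value 0.00142). Cd68 (5.18 and 10.5 TPM), Csf1r (1.41 and 3.39 TPM) and Adgre1 (0.753 and 2.05 TPM) were not called, with limma adjusted p-values of 0.0173, 0.0229 and 0.0249. Cd14 was at 6.04 TPM in WT and 6.45 TPM in KO, with overlapping groups (limma adjusted p-value 0.724). Ptprc and Itgam stayed under 1 TPM in all 6 samples. Summed epithelial markers (4 genes) were at 40.4 to 45.7 TPM in WT and 49.2 to 66.3 TPM in KO, mostly Krt18, with Epcam and Cdh1 under 1 TPM in all samples. Summed endothelial markers (4 genes) were at 1.10 to 1.87 TPM in WT and 2.31 to 3.10 TPM in KO. Of these 8 genes only Krt8, Krt18 and Kdr were tested, and none of them was called. Neural, skeletal muscle and erythroid markers overlapped between the groups in their sums. The part of RNA from such cells in the results was not tested. KO 7 was the only sample with Xist (117 TPM) and without Ddx3y (0 TPM), so it differs from the other 5 in sex by these genes. In bulk RNA, fewer cells of a type and less RNA per cell cannot be told apart.

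Nipsnap1 (ENSMUSG00000034285.15, mm10 chr11:4873951-4894200, plus strand) had the lowest log2 fold change of the 10 genes. WT 4, 5 and 8 had 15.8, 14.7 and 14.2 TPM of its transcript. In KO 3, 7 and 10 it was 2.02, 2.06 and 2.03 TPM. The groups did not overlap, and each KO sample held between 13.6% and 13.8% of the WT mean. The mean was 14.9 ± 0.838 TPM (SD, n = 3) in WT and 2.04 ± 0.0221 TPM (SD, n = 3) in KO, which is 7.31-fold lower. On the log2(TPM + 1) scale the difference was -2.39 (SE 0.12), and only 2 of the 14799 tested genes had a lower value. The KO values rest on 39, 53 and 48 reads, against 340, 341 and 357 reads in WT. Counting alone gives an exact Poisson 95% interval of 1.44 to 2.77 TPM for KO 3, 1.55 to 2.70 TPM for KO 7 and 1.5 to 2.69 TPM for KO 10. These intervals cover counting error only, and they are wider than the spread between the 3 KO samples. The closeness of the KO values to each other is therefore finer than the depth can resolve.

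**Figure D1:**
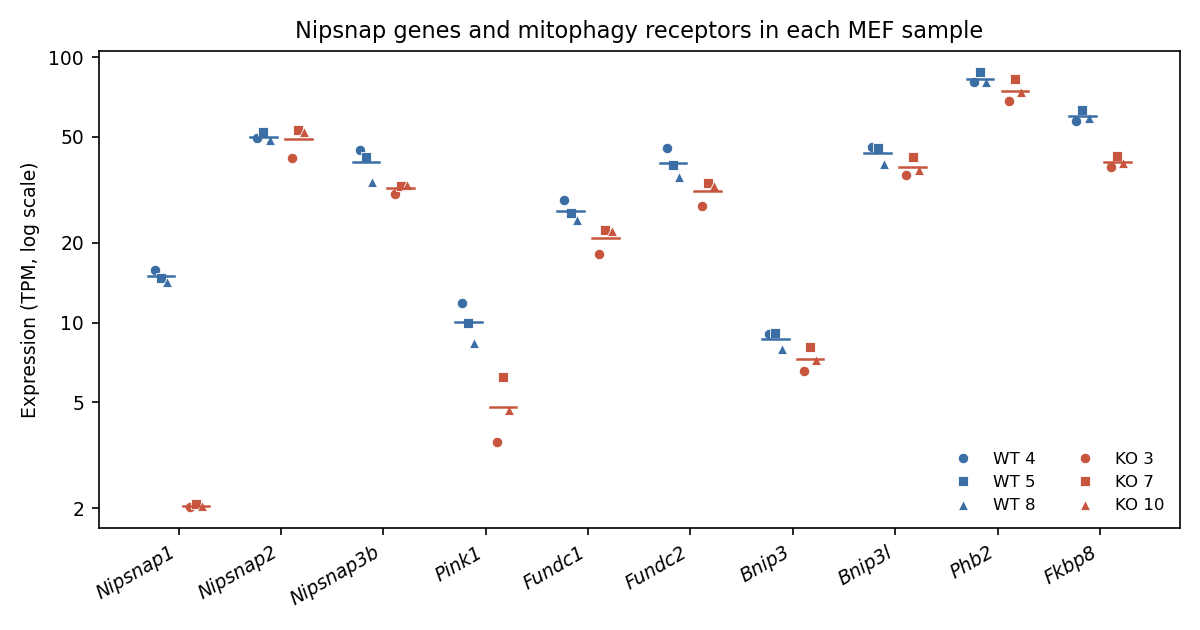
Expression in TPM (log scale) of the 10 genes in each of the 6 samples, with WT in blue, KO in red and a short line at each group mean. Nipsnap1 lies near 2 TPM in all KO samples and above 14 TPM in all WT samples, while the groups overlap for Nipsnap2, Bnip3, Bnip3l and Phb2.

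The promoter sequences of Nipsnap1 and its closest relative Nipsnap2 are shown because the levels of these genes differ so much in KO cells, and that of Pink1 because its log2 fold change was the next lowest. Bnip3 is added as a receptor gene known as a target of the hypoxia-inducible factor. The stretches come from RefSeq on GRCm38.p6, are written 5′ to 3′ on the strand of the gene and end at the base before the first annotated exon. They cover chr11:4873701-4873950 for Nipsnap1 (plus strand), chr5:129724825-129725062 for Nipsnap2 (plus strand), chr4:138326308-138326546 for Pink1 (minus strand) and chr7:138909520-138909756 for Bnip3 (minus strand). Capitals mark matches to the motifs described after them, and a match that runs past the first exon base is cut there.
Nipsnap1: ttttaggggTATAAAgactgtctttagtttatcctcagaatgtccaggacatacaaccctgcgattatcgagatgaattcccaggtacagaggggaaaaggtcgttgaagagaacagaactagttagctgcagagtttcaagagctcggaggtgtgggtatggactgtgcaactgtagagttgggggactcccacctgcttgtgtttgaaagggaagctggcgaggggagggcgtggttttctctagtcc
Nipsnap2: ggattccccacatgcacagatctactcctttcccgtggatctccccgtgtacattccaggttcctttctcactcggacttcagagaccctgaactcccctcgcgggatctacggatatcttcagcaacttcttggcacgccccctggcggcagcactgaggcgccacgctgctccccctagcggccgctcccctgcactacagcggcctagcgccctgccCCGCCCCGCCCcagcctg
Pink1: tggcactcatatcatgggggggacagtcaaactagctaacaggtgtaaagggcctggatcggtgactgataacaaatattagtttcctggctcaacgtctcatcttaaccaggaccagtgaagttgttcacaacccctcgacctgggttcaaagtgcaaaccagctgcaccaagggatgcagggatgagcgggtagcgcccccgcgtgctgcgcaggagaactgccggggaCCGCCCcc
Bnip3: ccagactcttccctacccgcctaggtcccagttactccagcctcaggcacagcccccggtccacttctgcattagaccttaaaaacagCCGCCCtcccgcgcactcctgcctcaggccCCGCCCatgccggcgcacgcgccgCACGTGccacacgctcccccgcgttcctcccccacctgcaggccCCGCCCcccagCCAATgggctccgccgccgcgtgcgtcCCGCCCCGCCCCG

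RefSeq windows from 250 bases before to 50 after the start site were found for 9 of the 10 genes, all but Bnip3l. A check of the gene strand against the transcript was passed by 8 windows and not by that of Phb2. The Phb2 window is kept in the counts below and sets the upper limit of 29 CpG pairs. Searched on both strands, the GC box GGGCGG, a site of SP and KLF factors, occurred in 6 of these 9 windows, namely those of Nipsnap2, Nipsnap3b, Pink1, Bnip3, Phb2 and Fkbp8. It occurs in 65.7% of the 9775 windows of tested genes and in 35.9% of all 27018 windows. The Nipsnap1 window held no GC box, and its single match was TATAAA at -241 (first base of the match, with the start site as 0), a motif found in 6.79% of the windows of tested genes. Its GC content of 52.0% and its 8 CpG pairs were the lowest of the 9 windows, where the others ranged from 58.0% to 71.7% GC and from 12 to 29 CpG pairs. Of the windows of tested genes, 16.7% had as low a GC content and 14.2% as few CpG pairs. Nipsnap2, by contrast, had 2 overlapping GC boxes at -30 and -25 and 27 CpG pairs. Pink1 had GC boxes at -19 and 7. Bnip3 had 6 GC boxes, a CCAAT box at -53 and the E-box CACGTG at -108, which contains the hypoxia response core ACGTG on both strands. That core, searched in these letters only, was present in 4 of the 9 windows (Fundc2, Bnip3, Phb2 and Fkbp8) and in 26.0% of those of tested genes. CCAAT was present in 3 windows against 39.0%, and the ETS core CCGGAAG in 2 (Fundc2 and Phb2) against 18.7%. The NRF1 core GCGCATGC, the YY1 core AAGATGGC and the ACTACAA core of ZNF143 sites were found in 0 of the 9 windows, and they occur in 5.62%, 4.86% and 4.38% of the windows of tested genes. These matches describe letters within the windows and say nothing of whether a factor binds.

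Nipsnap2 and Nipsnap3b were compared with Nipsnap1 as its relatives. Nipsnap2 (ENSMUSG00000029432.12, chr5:129725063-129758327, plus strand) encodes a protein that acts alongside NIPSNAP1 on damaged mitochondria. It was expressed at 49.4, 52.4 and 48.6 TPM in WT 4, 5 and 8 and at 41.6, 53.3 and 52.2 TPM in KO 3, 7 and 10. The groups overlapped, with KO 3 alone below all WT samples. Its mean was 50.1 ± 1.99 TPM (SD, n = 3) in WT and 49.0 ± 6.45 TPM (SD, n = 3) in KO. KO minus WT gave a log2 fold change of -0.039 (SE 0.12; 95% interval -0.30 to 0.22; limma adjusted p-value 0.833). As the fall of Nipsnap1 chose the genes, its log2 fold change of -2.39 is set beside this interval as a description only.

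Nipsnap3b (ENSMUSG00000015247.10, chr4:53011880-53022060, plus strand) encodes a further member of the family whose role is less well described. Its level was 44.7, 42.0 and 33.9 TPM in the WT samples in the same order and 30.4, 32.8 and 33.1 TPM in the KO samples. All KO samples lay below all WT samples, though KO 10 and WT 8 were less than 1 TPM apart. The mean went from 40.2 ± 5.60 to 32.1 ± 1.47 TPM (SD, n = 3 each), a log2 fold change of -0.31 (SE 0.12; limma adjusted p-value 0.0856) that missed the threshold stated below. Nipsnap3a was not analysed here. The 3 Nipsnap genes summed to 105 ± 7.36 TPM in WT and 83.1 ± 7.91 TPM in KO (SD, n = 3 each). Nipsnap1 made up 14.2 ± 0.646% of this sum in WT and 2.47 ± 0.231% in KO. The ratio of Nipsnap2 to Nipsnap1 was 3.12, 3.57 and 3.42 in WT 4, 5 and 8 and 20.5, 25.8 and 25.7 in KO 3, 7 and 10. This ratio does not depend on how the samples are scaled against each other.

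Genes were called changed at a limma adjusted p-value under 0.005, taken over all 14799 genes with a group mean of at least 1 TPM, together with a log2 fold change above 0.5 or below -0.5. By this rule 9.03% of the tested genes were lower in KO and 1.64% were higher. All 10 genes passed the expression filter in both groups. Of the 9 genes other than Nipsnap1, 1 was called lower (Fkbp8) and 0 higher, a share near that background. The KO mean was below the WT mean in all 9, and their median log2 fold change was -0.31. Over every tested gene the median was -0.069, so most tested genes also had a log2 fold change below 0. The share of tested genes with a lower KO mean was not counted. For Nipsnap2 the lower direction depends on scaling, since it was at 0.064 after median-of-ratios scaling. The median over every tested gene was then 0.023. All 3 KO samples lay below all 3 WT samples in 5 of these 9 genes, a separation seen in 29.9% of tested genes. All KO samples lay above the WT samples in 0 of the 9, against 13.3% of tested genes.

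**Figure D2:**
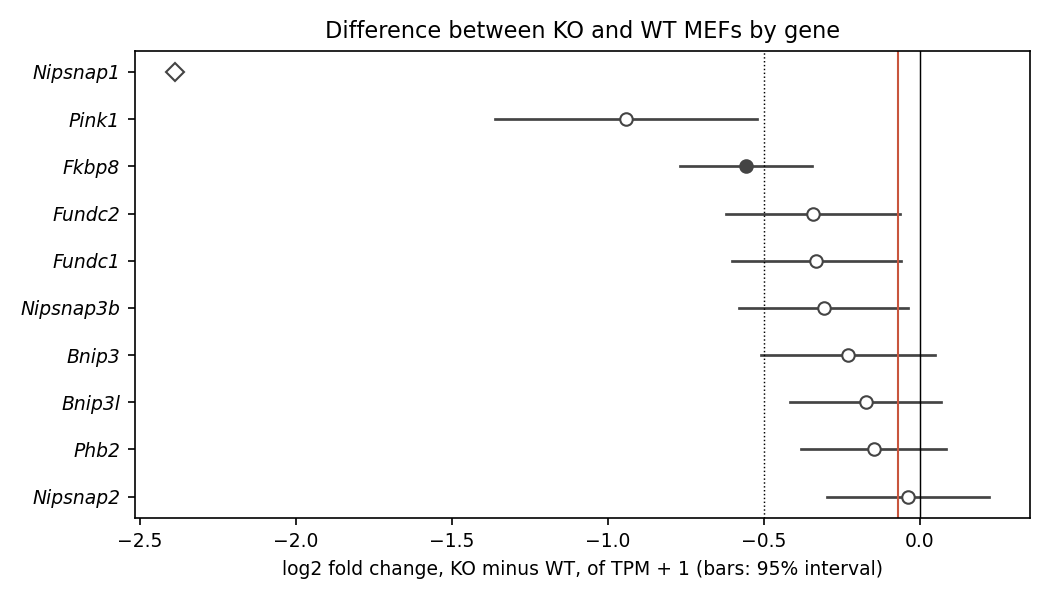
Difference between KO and WT on the log2(TPM + 1) scale for each gene, with 95% intervals as bars. The filled point is the gene called lower (Fkbp8), the open points are not called, the diamond is Nipsnap1 without a test, the dotted line is at -0.5 and the red line is the median of all tested genes (-0.069). Pink1 lies at -0.94 with an interval of -1.36 to -0.52.

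Pink1 (ENSMUSG00000028756.12, chr4:138313409-138326307, minus strand) encodes the kinase that starts the ubiquitin route. It was at 11.8, 9.98 and 8.40 TPM in WT 4, 5 and 8 and at 3.55, 6.22 and 4.69 TPM in KO 3, 7 and 10. Every KO sample was below every WT sample, and the KO samples held between 35.3% and 61.7% of the WT mean. The mean was 10.1 ± 1.71 TPM in WT and 4.82 ± 1.34 TPM in KO (SD, n = 3 each), which is 47.9% of WT. Its log2 fold change of -0.94 (SE 0.19) was larger than that of Fkbp8, yet with its wider spread the limma adjusted p-value of 0.00536 was just above 0.005 and the gene was not called. The result sits at the threshold. It passed with a limma adjusted p-value of 0.00352 after median-of-ratios scaling, of 0.00108 with voom on the recovered reads, and of 0.00394 without KO 7. It did not pass without an expression filter (limma adjusted p-value 0.0291), without a variance trend (0.0104) or with a pseudocount of 0.1 (0.00585), nor in the other 5 fits that left out a single sample (0.00787 to 0.0176). The reads behind it were 256, 234 and 213 in WT and 69, 161 and 112 in KO. The exons of Pink1 also hold the annotated microRNA genes Gm27646 (110 bp) and Mir7019 (69 bp) on the same strand.

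Fkbp8 (ENSMUSG00000019428.16, chr8:70527724-70535328, plus strand) encodes an outer membrane receptor that binds LC3 and also partners the survival factor BCL2. WT 4, 5 and 8 had 57.7, 63.1 and 58.8 TPM of it, and KO 3, 7 and 10 had 38.7, 42.3 and 40.1 TPM. The groups were well apart, with more than 15 TPM between the highest KO and the lowest WT sample. The mean fell from 59.9 ± 2.88 TPM to 40.4 ± 1.81 TPM (SD, n = 3 each), leaving 67.4%. This corresponds to a log2 fold change of -0.56 (SE 0.09; 95% interval -0.77 to -0.35; limma adjusted p-value 0.00256). The call is close to both thresholds. It was lost in 5 of the 6 fits that left out a single sample, and remained called only without WT 4, while the log2 fold change stayed between -0.59 and -0.52. After median-of-ratios scaling the log2 fold change was -0.45, short of the limit of -0.5 (limma adjusted p-value 0.00309). The exons of Fkbp8 share 224 bp (4.95% of their length) with Kxd1 on the opposite strand, and whether counting used strand is not given in the sources used here. Kxd1 was itself lower, at 11.9 TPM in WT and 7.18 TPM in KO (limma adjusted p-value 0.00249), so the level of Fkbp8 is uncertain to the extent of that overlap.

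Fundc1 and Fundc2, a pair of paralogs that both lie on chromosome X, had similar differences. Fundc1 (ENSMUSG00000025040.13, chrX:17556564-17572325, minus strand) encodes a receptor of hypoxia-induced mitophagy and was at 29.0, 25.8 and 24.4 TPM in WT and 18.1, 22.3 and 22.1 TPM in KO. Fundc2 (ENSMUSG00000031198.4, chrX:75382399-75396459, plus strand) encodes a related outer membrane protein and was at 45.3, 39.2 and 35.4 TPM in WT and 27.5, 33.5 and 32.7 TPM in KO. For both genes all KO samples lay below all WT samples. The KO mean was 78.8% of WT for Fundc1 and 78.2% for Fundc2. The log2 fold changes were -0.33 (SE 0.12) and -0.34 (SE 0.12), neither of them called (limma adjusted p-values 0.0690 and 0.0689). Without KO 7, the sample with Xist, the log2 fold changes were -0.38 and -0.39.

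Bnip3 and Bnip3l, paralogs that encode outer membrane receptors induced by low oxygen, had overlapping groups and were not called. Bnip3 (ENSMUSG00000078566.8, chr7:138890836-138909519, minus strand) was at 9.04, 9.11 and 7.96 TPM in WT and at 6.56, 8.07 and 7.22 TPM in KO. KO 7 was above WT 8, so the groups overlapped. Its log2 fold change was -0.23 (SE 0.12; 95% interval -0.51 to 0.05; limma adjusted p-value 0.200). Of its exon length, 22.3% is shared with the antisense gene Gm45507, which was not analysed here, so reads of the antisense gene may be counted with it. Bnip3l (ENSMUSG00000022051.15, chr14:66985239-67008877, minus strand), also known as Nix, was at 45.8, 45.5 and 39.6 TPM in WT and at 36.0, 42.1 and 37.5 TPM in KO. Its groups overlapped through the same samples, KO 7 and WT 8. Its log2 fold change was -0.17 (SE 0.11; 95% interval -0.42 to 0.07; limma adjusted p-value 0.264).

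Phb2 (ENSMUSG00000004264.17, chr6:124712336-124716950, plus strand) encodes prohibitin 2, an inner membrane scaffold that binds LC3 once the outer membrane has ruptured. It was the most highly expressed of the 10 genes, at 80.3, 87.5 and 80.6 TPM in WT and at 68.2, 82.4 and 73.7 TPM in KO. KO 7 lay within the WT range and the other 2 KO samples were below it. The log2 fold change was -0.15 (SE 0.10; 95% interval -0.38 to 0.08; limma adjusted p-value 0.316). Its exons share 141 bp with the antisense gene Gm15884 and 155 bp with the snoRNA gene Gm23547. Its partner Phb, which encodes prohibitin 1, was at 111 ± 10.3 TPM in WT and 93.3 ± 4.94 TPM in KO (SD, n = 3 each; limma adjusted p-value 0.107).

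The samples of a group moved together across these genes. KO 3 was the lowest KO sample in 10 of the 10 genes, KO 7 the highest in 9, and WT 8 the lowest WT sample in 8. These orders were not counted over all tested genes, so they are not shown to be particular to these 10. The share of TPM taken by Gm23935, a 57 bp RNA with the highest TPM in the table, was highest in KO 3 and WT 8 of their groups. It stood at 15.5%, 18.3% and 24.3% in WT 4, 5 and 8 and 25.6%, 15.5% and 19.9% in KO 3, 7 and 10. When this RNA was removed and the rest rescaled, a check added after the data had been seen, the median coefficient of variation of the 10 genes went from 7.73% to 6.00% in WT and from 9.98% to 4.57% in KO. KO 3 was then the lowest KO sample in 6 genes. The KO samples were then below all WT samples in 7 of the 9 genes other than Nipsnap1, all but Nipsnap2 and Phb2, and the same held for 34.6% of tested genes. Pink1 was called lower as well as Fkbp8 (limma adjusted p-value 0.00338 for Pink1). In that fit 1750 of 14798 tested genes were called lower and 310 higher, against 1337 and 242 of 14799 with Gm23935 kept.

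Per length, the order of the levels in WT was Phb2, Fkbp8, Nipsnap2, Bnip3l, Nipsnap3b, Fundc2, Fundc1, Nipsnap1, Pink1 and Bnip3 from the highest mean to the lowest. The sample ranges of Bnip3l and Nipsnap3b, of Nipsnap3b and Fundc2, and of Pink1 and Bnip3 overlapped. In KO the order was Phb2, Nipsnap2, Fkbp8, Bnip3l, Nipsnap3b, Fundc2, Fundc1, Bnip3, Pink1 and Nipsnap1. Here the ranges of Nipsnap2 and Fkbp8, of Fkbp8 and Bnip3l, and of Nipsnap3b and Fundc2 overlapped. Nipsnap1 moved from rank 8 to rank 10.

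The genes with a profile most like that of Nipsnap1 were sought by the mean absolute difference over the 6 samples of log2(TPM + 1) values, each taken relative to the WT mean of the gene. Among 12258 genes the 5 nearest were Gpr89 (0.118), Sumf1 (0.128), Slc18b1 (0.132), Morn4 (0.137) and Zc4h2 (0.153). They lie on chromosomes 3, 6, 10, 19 and X. Gpr89 encodes an ion channel of the Golgi and Sumf1 the enzyme that activates sulfatases. KO cells held 12.6% of the WT level of Gpr89, 19.5% of Sumf1, 11.6% of Slc18b1, 11.4% of Morn4 and 14.1% of Zc4h2. As the likeness was measured on the same samples, it is a description.

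The genes around Nipsnap1 on chromosome 11 had smaller differences. Within 500 kb of its start site 12 other genes were tested, of which 3 were lower and 0 higher, where 9.03% and 1.64% of all tested genes were called. They had log2 fold changes from -1.10 to 0.29 and a median of -0.13. The nearest on either side were Nf2, which encodes the tumour suppressor merlin, and Thoc5, which encodes a subunit of the mRNA export complex THO. Nf2 starts 24.4 kb before Nipsnap1 and had a log2 fold change of -0.23 (limma adjusted p-value 0.213). Thoc5 starts 21.4 kb after it and was lower by a log2 fold change of -0.74 (limma adjusted p-value 0.00138). The other genes called lower were Zmat5 (-1.10, limma adjusted p-value 0.00319) and Ap1b1 (-0.97, limma adjusted p-value 0.000499), both named after their values had been seen.

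**Figure D3:**
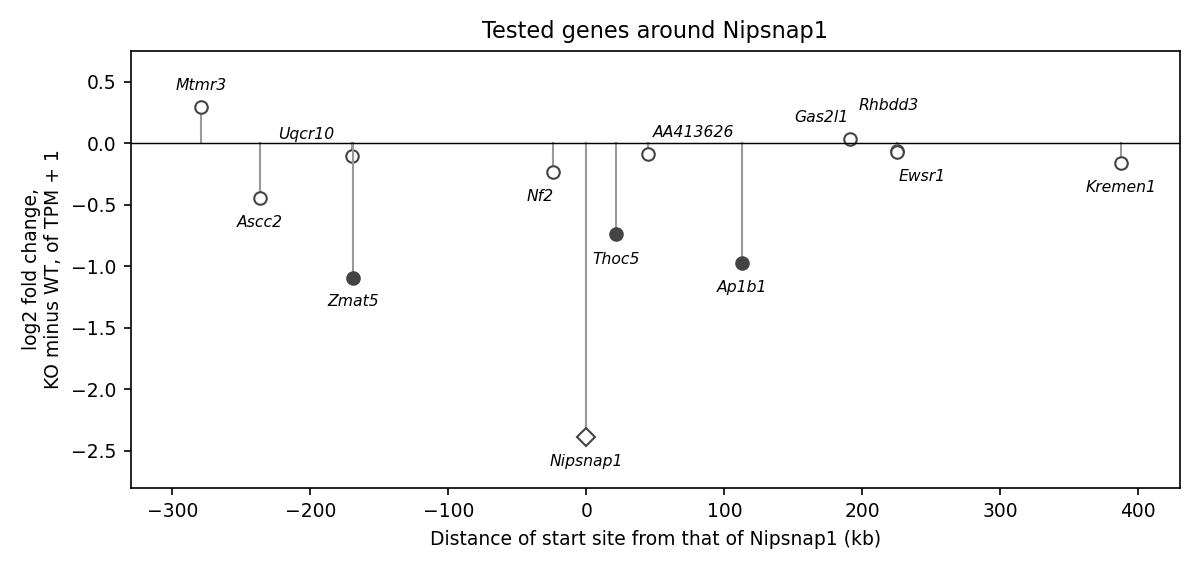
Log2 fold change of each tested gene within 500 kb of Nipsnap1 against the distance of its start site in kb. Filled points are called lower, open points are not called and the open diamond is Nipsnap1 without a test (-2.39). The other 12 genes lie between -1.10 and 0.29.

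The wider machinery was described by 5 lists of genes, of which 83 were tested, 6 (7.23%) were lower and 1 was higher, with a median log2 fold change of -0.13. The share called lower was below the 9.03% over all tested genes, and 1.64% of those were called higher. The calls were not stable to leaving out a single sample. In 4 of the 6 such fits (without WT 4, WT 5, KO 3 or KO 10) 0 list genes were lower. In 3 (without KO 3, KO 7 or KO 10) 0 were higher. Over all tested genes the lower calls fell too in these 6 fits, from 1337 to between 617 and 938. The higher calls went from 242 to between 84 and 252, so the loss is not particular to the lists. In the ubiquitin arm that PINK1 acts in, 3 of 19 tested genes were lower, 0 were higher and the median was -0.27. Mul1, a ubiquitin ligase of the outer membrane, fell from 15.7 ± 0.975 to 8.82 ± 1.09 TPM (SD, n = 3 each; log2 fold change -0.77, limma adjusted p-value 0.00185). Tomm22, the receptor subunit of the import complex on which PINK1 gathers, fell from 112 ± 7.15 to 71.0 ± 6.41 TPM (log2 fold change -0.65, limma adjusted p-value 0.00202). Mfn2, a fusion protein of the outer membrane that is ubiquitinated along this route, fell from 54.9 ± 6.04 to 34.9 ± 3.82 TPM (log2 fold change -0.64, limma adjusted p-value 0.00434).

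Among the cargo adaptors and scaffolds 1 of 9 tested genes was lower and 1 was higher. Sqstm1, the adaptor p62 that links ubiquitin to LC3, rose from 264 ± 25.4 to 425 ± 19.6 TPM (SD, n = 3 each; log2 fold change 0.69, limma adjusted p-value 0.00129). Calcoco1, a receptor for the turnover of endoplasmic reticulum, fell from 13.5 ± 0.837 to 8.30 ± 0.712 TPM (log2 fold change -0.64, limma adjusted p-value 0.00328). Wdfy3, which encodes the scaffold ALFY that NIPSNAP proteins bind, had a log2 fold change of -0.019 (limma adjusted p-value 0.924). Of 17 other receptors and their regulators 1 was lower. This was Nlrx1, a mitochondrial member of the NOD-like receptor family that binds LC3, which fell from 2.75 ± 0.520 to 0.926 ± 0.110 TPM (log2 fold change -0.95, limma adjusted p-value 0.00419). Its KO mean was under 1 TPM, so it passed the expression filter through its WT mean alone. Genes that enter in this way can hardly be other than lower in KO, and without the filter 0 list genes were called lower.

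Since Bnip3, Bnip3l and Fundc1 act in hypoxia, 22 hypoxia-response genes were examined. By limma 0 were called in either direction, with a median log2 fold change of -0.13. At an unadjusted p under 0.05, 2 were lower and 2 were higher, where 27.2% and 12.2% of all tested genes were. Voom on the recovered reads also called 0, with 3 lower and 5 higher at that unadjusted level, where 32.8% and 19.1% of all tested genes were. Median-of-ratios scaling gave 1 lower and 5 higher, where 26.6% and 25.5% of all tested genes were. The list of mitochondrial content held 16 nuclear-encoded genes, whose RNA does not measure the amount of mitochondria. Of these 16 genes 1 was lower, with a median of -0.10. This was Uqcrc2, a core subunit of respiratory complex III, which fell from 99.3 ± 9.98 to 66.6 ± 3.13 TPM (SD, n = 3 each; log2 fold change -0.57, limma adjusted p-value 0.00369).

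**Figure D4:**
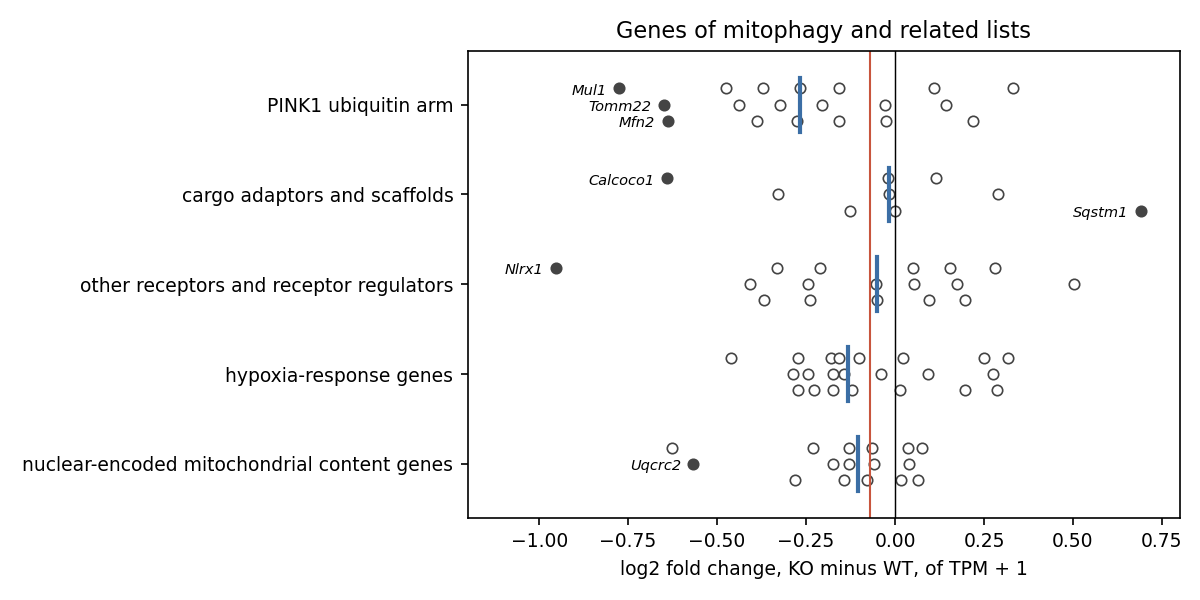
Log2 fold change of each tested gene in the 5 lists, with filled points for called genes, a blue bar at the median of each list and a red line at the median of all tested genes (-0.069). The medians lie between -0.27 for the PINK1 ubiquitin arm and -0.016 for the cargo adaptors, and Sqstm1 is the only gene called higher.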

How the data were processed

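RNA sequencing was performed on MEFs with the NEBNext Ultra kit on a NovaSeq instrument. The methods of the study name STAR, the mm10 build and DESeq2, whereas the submitters' processing notes name Bowtie 0.12.2 and mm10; the counting program, the annotation and the use of strand are not given in the sources used here. The authors deposited TPM for 26898 genes in 6 samples. The deposited table also holds the authors' own log2 fold changes and adjusted p-values of KO against WT, which were not used.

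Samples were grouped by their titles. A two-sided test was made on log2(TPM + 1) by limma (version 3.58.1, R version 4.3.3) with a variance trend. P-values were adjusted by Benjamini-Hochberg over the 14799 genes whose mean reached 1 TPM in WT or KO. The pseudocount of 1 understates changes of low genes. The script was tested on simulated data. Whole reads were recovered from TPM and exon lengths of GENCODE release M21, to which all identifiers matched. Every value checked came out whole at a tolerance of 0.05.

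The members and lists were chosen with earlier results of these data known. The text names the 10 genes, Kansl1, the called genes and partners in each list, the 5 nearest profiles and the nearest tested genes. A gene first listed in the ubiquitin arm was left out and is not reported here. Alternatives were no filter, a mean over all 6 samples of 10 TPM or more, a pseudocount of 0.1, median-of-ratios scaling, no variance trend, an adjusted p-value under 0.05 and leaving out each sample.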

Additional observations from a re-analysis of the deposited data

How the results depend on the processing

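The 9 genes other than Nipsnap1 gave 0 genes lower without an expression filter or without a variance trend. They gave 2 (Pink1 and Fkbp8) with voom, without Gm23935 and at an adjusted p-value under 0.05. Voom and the removal of Gm23935 were chosen after seeing the data. Leaving out 1 sample gave 0 to 1 lower and 0 to 0 higher among these 9 genes. The counts over all tested genes moved as well, from 1337 of 14799 lower in the main fit. They were 286 of 26898 without a filter and 1149 of 14799 without a variance trend. With voom 2152 of 14799 were lower, without Gm23935 1750 of 14798, and at an adjusted p-value under 0.05 2453 of 14799.

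The log2 fold change of Nipsnap1 was -2.81 with a pseudocount of 0.1, -2.30 with median-of-ratios scaling, -2.85 with voom and -2.42 to -2.35 with 1 sample left out. Nipsnap2 turned to 0.064 with median-of-ratios scaling and lay between -0.10 and 0.073 with 1 sample left out, above 0 only without KO 3. Pink1 passed the limma thresholds at -0.85 with median-of-ratios scaling, at -1.02 with voom, at -0.95 without Gm23935 and at -0.94 with an adjusted p-value under 0.05. Its range with 1 sample left out was -1.11 to -0.78, and its limma adjusted p-value lay between 0.00108 and 0.0291 over all alternatives. Fkbp8 no longer passed at -0.56 without an expression filter (limma adjusted p-value 0.00624) or without a variance trend (0.00727), nor at -0.45 with median-of-ratios scaling, and lay between -0.59 and -0.52 with 1 sample left out.

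With 1 sample left out, the log2 fold change was -0.42 to -0.23 for Nipsnap3b, -0.39 to -0.24 for Fundc1, -0.42 to -0.25 for Fundc2, -0.30 to -0.17 for Bnip3, -0.24 to -0.13 for Bnip3l and -0.22 to -0.086 for Phb2, and none of these 6 genes passed under any alternative. A filter on the mean over all 6 samples, at 10 TPM or more, left Nipsnap1, Pink1 and Bnip3 without a value. Over all tested genes, 1337 were lower and 242 higher. These counts were 286 and 55 without a filter, 2453 and 694 for an adjusted p-value under 0.05, 2152 and 433 for voom, and 617 to 938 and 84 to 252 with 1 sample left out. Median-of-ratios scaling gave 1441 lower and 473 higher. The median over every tested gene went with it from -0.069 to 0.023 on the log2 scale, and the share of called genes that were lower from 84.7% to 75.3%. That share was 76.5% with a mean of at least 10 TPM. In the 5 lists, the 6 genes lower became 0 without a filter, 2 without a variance trend and 0 to 3 with 1 sample left out. The 1 gene higher became 0 without a filter, 2 with a mean of at least 10 TPM, median-of-ratios scaling, an adjusted p-value under 0.05, voom or without Gm23935, and 0 to 1 with 1 sample left out. No paired analysis was possible because no replicate number is shared by the WT samples (4, 5 and 8) and the KO samples (3, 7 and 10). The cause of these differences was not tested.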

Other observations

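The nearest tested gene on either side of each of the 10 genes gave 20 neighbours, of which 5 were lower in KO MEFs and 0 higher, where 9.03% of all tested genes were lower. Mrps17, which encodes a subunit of the mitochondrial ribosome and starts 9.57 kb from Nipsnap2, fell from 15.4 to 7.20 TPM (log2 fold change -1.01, limma adjusted p-value 0.000586), beside a Nipsnap2 log2 fold change of -0.039. Smc2, a condensin subunit and the nearest tested gene to Nipsnap3b on 1 side at a distance of 573 kb, fell from 66.6 to 35.2 TPM (log2 fold change -0.90, limma adjusted p-value 0.00115). Ddost, a subunit of the oligosaccharyltransferase that glycosylates new proteins, starts 21.6 kb from Pink1 and fell from 289 to 198 TPM (log2 fold change -0.55, limma adjusted p-value 0.00240). The others were Thoc5 beside Nipsnap1 and Kxd1 beside Fkbp8.

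Ulk1, the kinase that starts autophagosome formation and phosphorylates FUNDC1, was at 18.5 ± 1.11 TPM in WT and 26.7 ± 2.34 TPM in KO (SD, n = 3 each; log2 fold change 0.50, limma adjusted p-value 0.00821) and was not called. It was named after its value had been seen.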
